A study of Mus musculus with 44 samples.

Results

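Transcripts of 10 genes of renal glucose handling were followed in mouse kidney: the luminal sodium-glucose cotransporters Slc5a2 and Slc5a1, the facilitative transporters Slc2a2 and Slc2a1, and the gluconeogenic genes Pck1, Pck2, G6pc, Slc37a4, Fbp1 and Pcx. They were chosen by gene symbol for their role in glucose reabsorption and glucose production, and they are 10 of the 24733 genes with a value above 0 in the kidney RNA table. All 10 reached the mean of 1 TPM (a transcript abundance corrected for transcript length and scaled to a fixed total) required for testing, as did 12874 genes in all. The RNA was polyadenylated kidney RNA of 129SV mice aged 8 to 12 weeks after birth, all kept on night-restricted feeding. One genotype was wild type (WT). The other was a knockout (KO) of Bmal1, also called Arntl, a transcription factor of the circadian clock, for which the labels give no promoter or Cre and no sex. Each genotype was sampled at zeitgeber times (ZT, hours from lights on) 0, 4, 8, 12, 16 and 20, with 2 libraries, A and B, per genotype and time, so 12 libraries per genotype. Whether the 2 libraries came from separate animals is not given, so p-values measure only the spread between these libraries.

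Glucose filtered at the glomerulus is recovered in the proximal tubule. SGLT2, encoded by Slc5a2, takes up most of it in the early proximal tubule, and SGLT1, encoded by Slc5a1, takes up the remainder further along. Glucose leaves the cell on the blood side through GLUT2 (Slc2a2) and GLUT1 (Slc2a1). The proximal tubule also makes glucose from lactate, glutamine and glycerol: pyruvate carboxylase (Pcx) and the cytosolic and mitochondrial PEP carboxykinases (Pck1, Pck2) form phosphoenolpyruvate, fructose-1,6-bisphosphatase (Fbp1) acts midway, and glucose-6-phosphatase (G6pc), fed by the transporter Slc37a4, releases free glucose in the last step.

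The deposited values sum to a fixed total per library (999999 to 1000001 TPM), so the sequencing depth is unknown. Over all times together, the level of the targeted gene did not separate the genotypes. Arntl lay between 0.295 and 12.9 TPM in WT and was still detected in KO, at 4.19 to 6.28 TPM. Time by time, its libraries overlapped between genotypes at ZT4 only. Both KO libraries lay below WT at ZT0 (4.718 and 5.115 TPM, WT 12.92 and 12.42) and at ZT20. Both lay above WT at ZT8, ZT12 (5.939 and 5.696 TPM, WT 0.2947 and 0.527) and ZT16. The library labelled KO ZT4 A held 1.03 TPM of the clock gene Cry1, while the remaining 11 KO libraries held 11.5 to 17.8 and the WT libraries of ZT4 held 1.20 and 0.845. Its Nr1d1, another clock gene, stood at 23.9 TPM, against 22.0 and 33.0 in WT at ZT4 and at most 3.46 in the other KO libraries, so at both genes it lay with WT rather than with its label. Its position on the leading principal component (26.1% of the variance) was at -8.31, between the WT libraries (-44.8 to -9.42) and the other KO libraries (18.4 to 51.0). The library labelled KO ZT12 A held 0.099 TPM of the Y-linked gene Ddx3y, against 11.7 to 17.5 in the other 23 libraries. Both were kept under their labels, and values without them are given where they change a call.

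By level, the 10 genes spanned more than 2 orders of magnitude in TPM. In WT, Fbp1 was the highest, at 714 TPM ± 29.9 (SD, n = 12), followed by Pck1 (514 ± 253), Slc5a2 (257 ± 25.0), G6pc (177 ± 49.1), Pcx (136 ± 13.3), Slc37a4 (93.4 ± 10.5), Slc2a2 (49.9 ± 10.7), Slc2a1 (17.3 ± 2.84), Slc5a1 (16.1 ± 2.94) and Pck2 (3.84 ± 0.370). Neighbours in this order overlapped in their WT libraries, except that Slc37a4 and Slc2a2, Slc2a2 and Slc2a1, and Slc5a1 and Pck2 did not. The luminal transporter Slc5a2 was therefore present at many more transcripts than Slc5a1, and cytosolic Pck1 at many more than mitochondrial Pck2. In KO the order was the same except that Pck1 (768 TPM ± 267, SD, n = 12) stood above Fbp1 (711 ± 66.2).

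**Figure D1:**
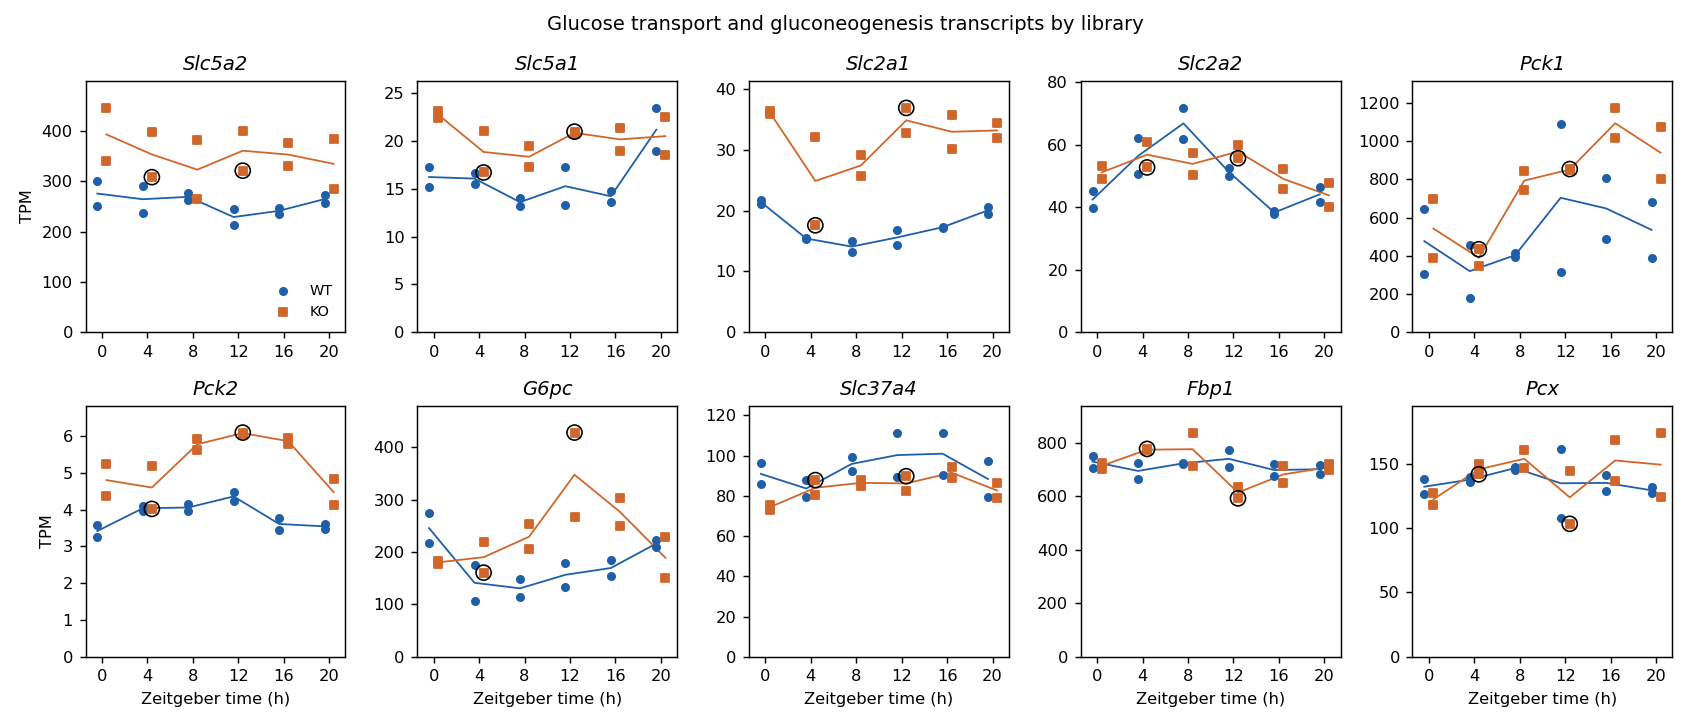
TPM of the 10 genes against zeitgeber time in WT (circles) and KO (squares) kidney, 1 point per library, lines through the means of 2 libraries, y axes from 0. Rings mark the libraries labelled KO ZT4 A and KO ZT12 A. Slc2a1 was higher in 11 KO libraries than in every WT library, whereas Fbp1 overlapped between genotypes.

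Sequences upstream of the genes were read from the RefSeq promoter table (GRCm38.p6), which covered 9 of the 10 genes with 12 windows of 300 bases around the start site. The motifs searched, on both strands, were the E-box CACGTG bound by BMAL1 with CLOCK, the D-box TTATGTAA, the ROR element, and the cAMP response element as TGACGTCA or as the variant TTACGTCA. The E-box lay in 2 of the 12 windows, those of Slc5a1 (143 bases before the start site) and of the upstream Pcx start (248 bases before it), against 7.15% of all 32817 windows. The D-box (0.935% of all windows), the ROR element (0.219%) and the full cAMP response element (1.79%) were in none of the 12. The variant TTACGTCA (0.497% of all windows) lay in the Pck1 window, 93 bases before the start site. The Slc5a1 and Pck1 stretches are printed because they carry these matches, with the motif in capitals, 5′ to 3′ on the plus strand, from chr5:33103969-33104218 and chr2:173152823-173153047. A match is a run of letters, not a measured binding site.
Slc5a1: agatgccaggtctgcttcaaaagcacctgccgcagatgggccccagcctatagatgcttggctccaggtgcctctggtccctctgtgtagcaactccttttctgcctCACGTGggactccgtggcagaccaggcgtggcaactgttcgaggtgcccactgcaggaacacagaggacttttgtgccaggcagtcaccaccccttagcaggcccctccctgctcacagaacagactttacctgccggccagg
Pck1: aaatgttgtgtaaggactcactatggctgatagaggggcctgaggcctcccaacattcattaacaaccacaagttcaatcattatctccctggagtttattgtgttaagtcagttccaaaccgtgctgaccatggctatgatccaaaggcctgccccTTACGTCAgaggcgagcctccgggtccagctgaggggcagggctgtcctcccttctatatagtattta

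The first comparison asked how the level of each gene depended on genotype, with time in the model. Slc2a1, Pck1, Slc5a2, Pck2, G6pc and Slc5a1 were higher in KO. Slc37a4 was lower, and Slc2a2, Fbp1 and Pcx did not pass the test. The 6 higher and 1 lower stand beside a background in which 50.9% of the 12874 genes tested were higher in KO and 10.0% lower (limma, adjusted p under 0.05), so the share of these genes that passed, 7 of 10, was close to the 60.9% of all genes. The median log2 difference, KO minus WT, was 0.37 over the 10 genes and 0.15 over all genes. With median-of-ratios scaling, which moved the median of all genes to -0.002, Slc5a2, Slc5a1, Slc2a1 and Pck2 still passed as higher and Slc37a4 as lower, Pck1 and G6pc no longer passed (adjusted p 0.067 and 0.19), and Fbp1 passed as lower (log2 difference -0.16, adjusted p 0.022). The background changed with the scaling too, to 21.5% of all genes higher and 22.6% lower. Of the 7 proximal tubule markers, the sodium-lactate cotransporter Slc5a12 was higher in KO and Miox, Ggt1 and Slc7a13 were lower, with a summed level of 4304 to 4821 TPM in WT and 3173 to 4574 in KO and none at 0. Their part in these differences was not tested. In bulk kidney RNA, fewer cells of a type and less RNA per cell cannot be told apart.

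Taken time by time, 15 differences passed as deposited, 14 of them higher in KO. With median-of-ratios scaling 11 passed. Of these 8 were higher (Slc2a1 at every time but ZT4, Pck2 at ZT8 and ZT16, G6pc at ZT12). The other 3 were lower (Slc2a2 at ZT8, Slc37a4 and Fbp1 at ZT12). On that scale 10.9% of all genes were higher and 13.1% lower at ZT12. The shares were 6.92% and 5.90% at ZT8, 6.81% and 8.17% at ZT16, 4.00% and 5.36% at ZT0, and 1.77% and 1.63% at ZT20. As deposited, ZT12 held the most, with Slc5a2, Slc5a1, Slc2a1, Pck2 and G6pc higher (31.9% of all genes were) and Fbp1 lower (6.24%). At ZT0, Slc5a1, Slc2a1 and Pck2 were higher (10.7% of all genes) and none of the 10 lower (2.75%). At ZT8, Slc2a1 and Pck2 were higher (11.1%) and none lower (3.44%). Slc5a1, Slc2a1 and Pck2 were again higher at ZT16 (17.0%), with none lower (4.47%), and at ZT20 Slc2a1 alone was higher (2.39%), with none lower (1.33%). At ZT4 limma called no gene of the 12874 in either direction (0%), while 12.7% of all genes, and of the 10 only Slc2a1, had an unadjusted p under 0.05 there. That count of 0 rested on the library labelled KO ZT4 A: without it 10.6% of all genes were higher in KO at ZT4, Slc2a1 among them, and 0.909% lower. With 1 library of the same time left out, the calls of Slc2a1 at ZT12 and ZT16 and of Pck2 at ZT16 held. Those of Slc5a1 at ZT0 and ZT16 and of Slc2a1 at ZT0 were lost without any of the 4 libraries of that time (adjusted p up to 0.20), and that of Slc5a1 at ZT12 without any but WT ZT12 A (up to 0.23). Slc2a1 at ZT8 was lost without KO ZT8 A or WT ZT8 B (up to 0.090). Pck2 was lost at ZT0 without WT ZT0 A, WT ZT0 B or KO ZT0 A (up to 0.19), at ZT8 without WT ZT8 A, WT ZT8 B or KO ZT8 A (up to 0.14), and at ZT12 without WT ZT12 B (0.061). None of the 10 genes separated the 12 WT from the 12 KO libraries completely, as 1.42% of all genes did with KO higher and 0.249% with KO lower.

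**Figure D2:**
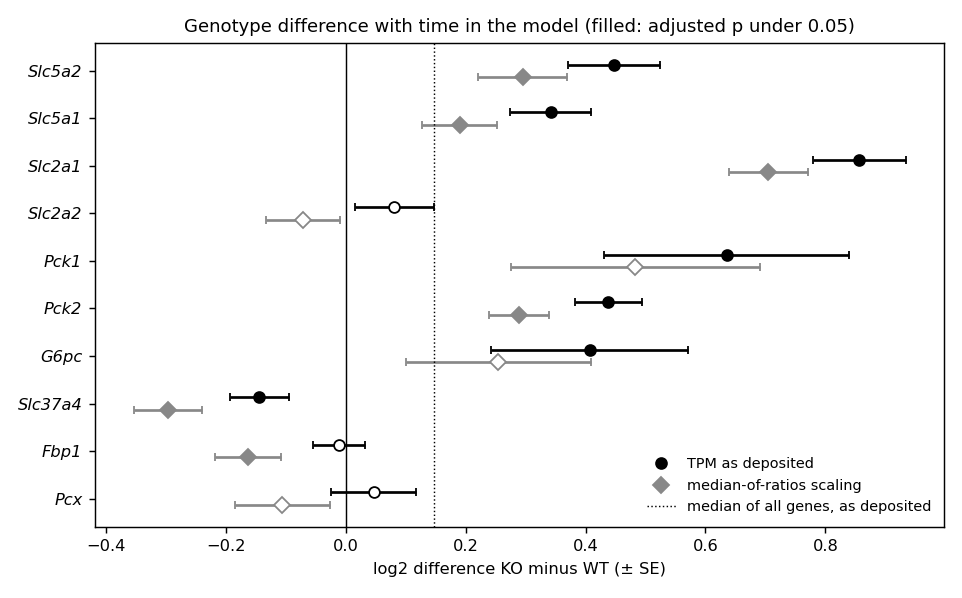
Log2 difference, KO minus WT, with its standard error for the 10 genes, from the TPM as deposited (circles) and after median-of-ratios scaling (diamonds); filled symbols passed an adjusted p of 0.05 and the dotted line is the median of all genes as deposited. Slc2a1 lay farthest to the right at 0.86, and Slc37a4 was below 0 on both scales.

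Slc5a2 (GRCm38 chr7:128265657-128272430, plus strand) carries the bulk of filtered glucose into the tubule cell. Its WT libraries ran from 212.2 to 300.8 TPM with a median of 253.5, and its KO libraries from 264.9 to 446 with a median of 358.4. Of the 12 KO libraries 10 lay above every WT library, so the genotypes overlapped only at their edges. The KO mean was higher at 6 of 6 times, and the fitted ratio was 1.36 (log2 difference 0.45, SE 0.077, adjusted p 6.83e-05). At single times only ZT12 passed, with 229 TPM ± 23.7 in WT and 361 ± 56.2 in KO (SD, n = 2, log2 difference 0.65, adjusted p 0.019). Without KO ZT12 B or WT ZT12 B that call was lost (adjusted p 0.115 and 0.12), as it was with median-of-ratios scaling (0.41, adjusted p 0.16) and after rescaling without mitochondrial genes (adjusted p 0.0504). No time-of-day pattern passed in either genotype: the fitted peak-to-trough difference of a 24-hour cosine was 0.23 log2 units in WT (SE 0.15, adjusted p 0.53) and 0.10 in KO (adjusted p 0.90).

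The authors' table holds 8 transcripts of Slc5a2. Slc5a2-202, which is protein coding and has 14 exons and 2277 nucleotides, took 62.6% ± 2.76 (SD, n = 12) of the gene's TPM in WT and 63.4% ± 3.07 in KO. Most of the rest went to short retained-intron and nonsense-mediated decay transcripts of 329 to 771 nucleotides, so the level of full-length Slc5a2 mRNA is nearer to the 161 TPM of Slc5a2-202 in WT and 223 in KO than to the sum. That transcript alone gave a log2 difference of 0.47 (SE 0.069, adjusted p 4.036e-05, limma over 26725 transcripts, of which 31.7% were called higher in KO).

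Slc5a1 (chr5:33104219-33162870, plus strand), the high-affinity cotransporter that recovers the glucose left in the later proximal tubule, was low in this tissue. It ran from 13.24 to 23.48 TPM in WT (median 15.37) and from 16.72 to 23.16 in KO (median 20.88). The highest library of all was WT at ZT20, and the KO mean was higher at 5 of 6 times. The fitted ratio was 1.27 (log2 difference 0.34, SE 0.068, adjusted p 0.00027). ZT0 (16.3 TPM ± 1.45 in WT, 22.8 ± 0.536 in KO, adjusted p 0.039), ZT12 (adjusted p 0.023) and ZT16 (adjusted p 0.025) passed singly. With median-of-ratios scaling none of these calls held (log2 differences 0.32, 0.22 and 0.33, adjusted p 0.17, 0.29 and 0.13), and the difference over all times was 0.19 (adjusted p 0.018). At ZT20 the means were 21.2 ± 3.23 in WT and 20.5 ± 2.82 in KO (SD, n = 2). WT was highest near the end of the night (fitted peak 21.5 h, peak-to-trough 0.42 log2 units, SE 0.14), but this did not pass (adjusted p 0.10). Slc7a13, a marker of the late proximal tubule segment where Slc5a1 is found, moved the other way, from 263 to 447 TPM in WT to 1.85 to 294 in KO, with 11 WT libraries above every KO library. Both KO limits came from the libraries that stood apart, KO ZT12 A and KO ZT4 A, and without them KO ran from 36.1 to 213 TPM. Its part in the level of Slc5a1 was not tested.

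Slc2a1 (chr4:119108711-119137983, plus strand), the widely expressed glucose transporter GLUT1, had the largest genotype difference of the 10. WT libraries held 13.12 to 21.75 TPM (median 17.0) and KO libraries 17.58 to 36.89 (median 32.49). In all, 11 KO libraries lay above every WT library, and the remaining one was the library labelled KO ZT4 A, at 17.58 TPM, beside 32.2 in KO ZT4 B and 15.3 and 15.5 in WT at that time. Without it the KO libraries began at 25.63 TPM and did not overlap WT. The fitted ratio was 1.81 (log2 difference 0.86, SE 0.078, adjusted p 2.565e-07), and 0.92 (adjusted p 1.048e-10) without that library. The difference at single times was largest at ZT12, with 15.6 TPM ± 1.77 in WT and 34.9 ± 2.88 in KO (log2 difference 1.16, SE 0.19, adjusted p 0.00059). At ZT20 it was 0.72 (adjusted p 0.047), and this call was lost under 24 of the alternative settings and omissions tried. Without KO ZT4 A the difference of Slc2a1 at ZT4 was 1.06 (adjusted p 0.00057).

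The WT means of Slc2a1 also varied over the day, from 14.1 TPM ± 1.36 at ZT8 to 21.4 ± 0.469 at ZT0 (SD, n = 2). The fitted peak was at 21.2 h and peak and trough were 0.57 log2 units apart (SE 0.16). Over all libraries this missed the threshold (adjusted p 0.056), while without KO ZT4 A it passed. The WT values are the same in both fits, but the test uses 1 spread per gene over both genotypes. In KO the fitted value was 0.43 (SE 0.16, adjusted p 0.24), and the difference in rhythm between genotypes was not detected (adjusted p 0.56).

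Slc2a2 (chr3:28697903-28731359, plus strand), the low-affinity GLUT2 through which glucose leaves early proximal tubule cells, had the smallest adjusted p of the 10 for a daily pattern in WT. The WT means were 42.4 TPM ± 3.87 at ZT0, 56.4 ± 8.20 at ZT4, 66.8 ± 6.98 at ZT8, 51.2 ± 2.01 at ZT12, 38.3 ± 0.782 at ZT16 and 44.1 ± 3.37 at ZT20 (SD, n = 2). The 2 libraries of ZT16 (37.7 and 38.8) lay below those of every other WT time, and the highest of all was ZT8 B at 71.7. The fitted peak was at 7.12 h (SE 0.66) and the peak-to-trough difference 0.69 log2 units (SE 0.12, adjusted p 0.0018). In KO the peak fell at 7.77 h with 0.33 log2 units (SE 0.12), which did not pass (adjusted p 0.20). The difference in rhythm between genotypes did not pass (adjusted p 0.49). The level difference did not pass: WT libraries ran from 37.7 to 71.7 TPM and KO libraries from 40.0 to 60.9, with a log2 difference of 0.08 (SE 0.066, adjusted p 0.29). Its sign was negative under median-of-ratios scaling (-0.07).

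Pck1 (chr2:173153048-173159273, plus strand) encodes the cytosolic PEP carboxykinase, the enzyme of gluconeogenesis best known for control at the level of its mRNA. It was the most variable of the genes. WT libraries ran from 180.5 to 1091 TPM (median 436.8) and KO libraries from 345.1 to 1174 (median 822.4), so the genotypes overlapped over most of their range. The KO mean was higher at 6 of 6 times, with a fitted ratio of 1.55 (log2 difference 0.64, SE 0.20, adjusted p 0.012). No single time passed: the nearest were ZT8, with 403 TPM ± 16.9 in WT and 794 ± 68.4 in KO (adjusted p 0.26), and ZT16, with 648 ± 227 and 1094 ± 113 (adjusted p 0.33). In both genotypes the lowest mean was at ZT4, 319 ± 196 in WT and 390 ± 62.9 in KO. The fitted peaks fell early in the night, at 15.9 h in WT and 15.2 h in KO, with peak-to-trough differences of 1.002 (SE 0.41) and 1.34 (SE 0.41) log2 units. Neither passed (adjusted p 0.22 and 0.13), and their difference was not detected (adjusted p 0.92).

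In WT the spread of Pck1 followed the replicate letter. Library A was above library B at 6 of 6 WT times, with A between 415 and 1091 TPM and B between 180.5 and 487. In KO, library A was above B at 5 of 6 times, but the ranges overlapped widely (434 to 1174 TPM in A, 345.1 to 1076 in B). Pck1 is also expressed in adipose tissue. The 4 adipose markers (Adipoq, Retn, Cidec, Plin1) summed to 0.262 to 11.6 TPM in WT and 0.293 to 13.9 in KO, with Plin1 listed at 0 in 1 library of each genotype, and neither of the 2 that could be tested differed between genotypes. Their sum was higher in library B at 5 of 6 WT times and 3 of 6 KO times. The part of adipose tissue in the spread of Pck1 was not tested.

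Pck2 (chr14:55540266-55551242, plus strand), the mitochondrial PEP carboxykinase, was low but even. WT libraries ran from 3.27 to 4.48 TPM (median 3.86) and KO libraries from 4.02 to 6.09 (median 5.43), and 9 KO libraries lay above every WT library. The fitted ratio was 1.35 (log2 difference 0.44, SE 0.056, adjusted p 3.402e-06), with the KO mean higher at 6 of 6 times. ZT0, ZT8, ZT12 and ZT16 passed singly, the largest being ZT16, with 3.61 TPM ± 0.216 in WT and 5.86 ± 0.121 in KO (log2 difference 0.69, adjusted p 0.0023). With median-of-ratios scaling ZT0 (0.31, adjusted p 0.075) and ZT12 (0.23, adjusted p 0.12) no longer passed, the difference over all times was 0.29 (adjusted p 0.00011), and after rescaling without mitochondrial genes ZT8 was lost (adjusted p 0.0502). Pck2 was the 1 gene of the 10 with a called rhythm in KO, against 3.64% of all genes: it peaked at 11.9 h (SE 0.82) with peak and trough 0.47 log2 units apart (SE 0.10, adjusted p 0.028). That call was lost without KO ZT0 B (adjusted p 0.075) or KO ZT12 B (0.060). The corresponding WT fit gave 0.31 (SE 0.10) with a peak at 9.33 h (adjusted p 0.094), and the difference between genotypes did not pass (adjusted p 0.51).

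G6pc (chr11:101367561-101377903, plus strand), the catalytic subunit of glucose-6-phosphatase, was the gene whose daily course differed most between the genotypes. In WT its mean was highest at ZT0, with libraries of 274 and 217 TPM, and lowest at ZT8, with 114 and 148. The KO libraries held 183 and 178 TPM at ZT0, 161 and 220 at ZT4, 253 and 205 at ZT8, 428 and 267 at ZT12, 250.0 and 304 at ZT16, and 149.7 and 229 at ZT20. At ZT0 both KO libraries were therefore below both WT libraries, and at ZT8, ZT12 and ZT16 both were above; 19.3% of all genes tested had such a separation in both directions. The fitted peak was at 20.9 h (SE 1.03) in WT and 12.6 h (SE 0.96) in KO, with peak-to-trough differences of 0.84 (SE 0.23, adjusted p 0.043) and 0.90 log2 units (SE 0.23, adjusted p 0.060). The difference in rhythm had an unadjusted p of 0.00043 and an adjusted p of 0.058, just over the threshold. It passed in 2 of 24 fits that left out 1 library, those without WT ZT4 B (adjusted p 0.026) or WT ZT12 A (0.046). Of 11 other alternatives 2 passed, median-of-ratios scaling (0.041) and a mean of at least 5 TPM (0.048), and the rest ran up to 0.315. Without the library labelled KO ZT12 A the adjusted p was 0.103. The WT rhythm of G6pc was itself lost with any of 9 single libraries left out, namely both of WT ZT0, ZT8 and ZT20, WT ZT12 B, WT ZT16 B and KO ZT0 B (adjusted p up to 0.127).

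That library also held the highest G6pc of all, at 428 TPM. With it, ZT12 was called (157 TPM ± 32.0 in WT, 348 ± 114 in KO, log2 difference 1.13, SE 0.28, adjusted p 0.008), without it the difference there was 0.79 (adjusted p 0.105), and without WT ZT12 B it was 0.92 (adjusted p 0.075). Over all times the log2 difference was 0.41 (SE 0.16, adjusted p 0.038), a ratio of 1.33, and the KO mean was higher at 4 of 6 times. This call was the least firm of the 7. Leaving out single libraries ended it in 15 of 24 cases (adjusted p up to 0.075), and without both libraries that stood apart the difference was 0.34 (adjusted p 0.071).

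Slc37a4 (chr9:44396852-44402968, plus strand) brings glucose 6-phosphate into the endoplasmic reticulum for G6pc. Over all times and as deposited it was the only gene of the 10 that passed as lower in KO, with WT libraries from 79.6 to 111.5 TPM (median 91.5) and KO libraries from 73.2 to 94.4 (median 85.7). Above every KO library lay 5 WT libraries. As deposited the ratio was 0.905 (log2 difference -0.14, SE 0.049, adjusted p 0.016), with the KO mean lower at 5 of 6 times. With median-of-ratios scaling the log2 difference was -0.30 (adjusted p 0.00036). As deposited it passed in all 24 fits that left out 1 library. The partner genes of the last step thus differed in direction as deposited, G6pc higher and Slc37a4 lower. No daily pattern passed for Slc37a4 (peak-to-trough 0.23 log2 units in WT, adjusted p 0.22, and 0.21 in KO, adjusted p 0.38).

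Fbp1 (chr13:62864753-62888282, minus strand), fructose-1,6-bisphosphatase, was the steadiest of the genes in WT. WT libraries lay between 665 and 772 TPM (median 718) and KO libraries between 592 and 838 (median 714). The log2 difference was -0.01 (SE 0.043, adjusted p 0.84). Its WT peak-to-trough difference was 0.04 log2 units (adjusted p 0.94) and its KO value 0.24 (SE 0.078, adjusted p 0.14). At ZT12 Fbp1 was lower in KO, with 740 TPM ± 45.0 in WT and 614 ± 30.7 in KO (SD, n = 2, log2 difference -0.27, adjusted p 0.023). Without the library labelled KO ZT12 A, the lowest of all at 592 TPM, that call was lost (adjusted p 0.16), as it was without WT ZT12 A (0.16). With median-of-ratios scaling the difference at ZT12 was -0.51 (adjusted p 0.0031).

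Pcx (chr19:4510472-4621752, plus strand), which makes oxaloacetate from pyruvate in the mitochondrion, did not pass as a gene: WT libraries ran from 107.9 to 161.4 TPM (median 136.8), KO libraries from 103.2 to 174.0 (median 142.9), and the log2 difference was 0.05 (SE 0.071, adjusted p 0.59). Its 2 transcripts in the table begin at start sites far apart, and as deposited their differences between genotypes had opposite signs. On that scale the median log2 difference of all genes was 0.15, not 0. Pcx-201, from the upstream start, held 51.0 TPM ± 10.5 in WT and 41.2 ± 6.52 in KO (SD, n = 12), and Pcx-202, from the downstream start, held 84.8 ± 10.6 and 99.9 ± 24.3. WT libraries of Pcx-201 ran from 35.0 to 67.4 TPM and KO libraries from 30.7 to 52.0, with overlap. Pcx-201 was lower in KO (log2 difference -0.29, SE 0.10, adjusted p 0.029, over transcripts of which 7.08% were called lower). Pcx-202 was 0.20 higher, which did not pass (adjusted p 0.17, over transcripts of which 31.7% were called higher). Without the libraries labelled KO ZT4 A and KO ZT12 A it was 0.28 higher. The share of Pcx-202 was 62.5% ± 6.26 in WT and 69.9% ± 8.38 in KO. This test was added after the shares had been seen, and kallisto estimates the split between transcripts rather than counting it.

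The 250 bases before each Pcx start are printed because the transcripts differed by start, from chr19:4510222-4510471 and chr19:4594069-4594318 (RefSeq start sites, GRCm38.p6, plus strand, 5′ to 3′). The E-box is in capitals. It is in the upstream window only, 248 bases before the start, and none of the motifs searched was in the downstream window.
Pcx upstream start: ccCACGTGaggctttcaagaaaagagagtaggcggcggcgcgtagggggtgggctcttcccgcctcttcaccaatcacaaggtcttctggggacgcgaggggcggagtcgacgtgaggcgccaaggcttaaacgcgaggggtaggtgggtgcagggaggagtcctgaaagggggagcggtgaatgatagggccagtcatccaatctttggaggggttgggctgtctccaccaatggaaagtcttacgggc
Pcx downstream start: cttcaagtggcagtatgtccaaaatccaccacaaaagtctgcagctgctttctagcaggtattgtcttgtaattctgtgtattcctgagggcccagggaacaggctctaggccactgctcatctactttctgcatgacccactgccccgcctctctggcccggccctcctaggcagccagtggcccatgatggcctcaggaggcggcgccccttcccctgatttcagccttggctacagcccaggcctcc

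**Figure D3:**
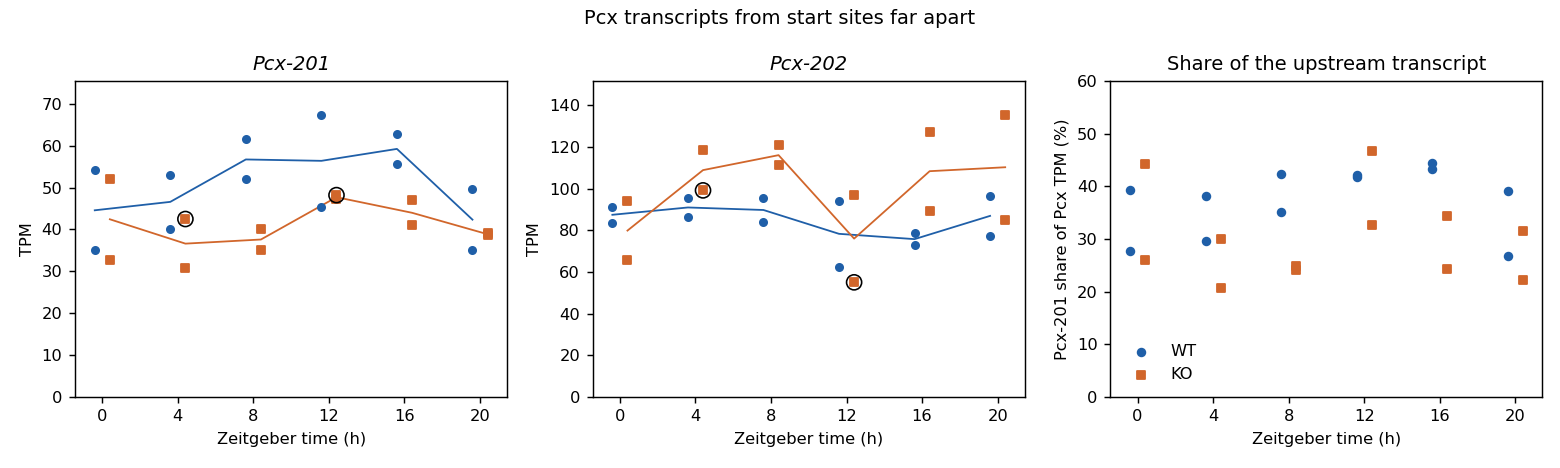
TPM of Pcx-201 and Pcx-202, and the share of Pcx-201 in the Pcx TPM, by zeitgeber time in WT (circles) and KO (squares), 1 point per library, lines through the means of 2 libraries; rings mark the libraries labelled KO ZT4 A and KO ZT12 A. The Pcx-201 mean was 51.0 TPM in WT and 41.2 in KO.

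The second comparison asked whether the genes followed the time of day. In WT, 2 of the 10 passed, Slc2a2 and G6pc, against 13.7% of all genes. In KO, Pck2 alone passed, and no gene of the 10 passed the test of a difference in rhythm between genotypes, against 0.629% of all genes; 1 of the 10, G6pc, had an unadjusted p under 0.05 for it. The median peak-to-trough difference of the 10 was 0.37 log2 units in WT and 0.29 in KO, and that of all genes was 0.25 and 0.21. The fitted WT peaks of the genes with larger amplitudes were spread over the day. Slc2a2 peaked at 7.12 h in the light phase and Pck1 at 15.9 h. Slc2a1, G6pc and Slc5a1 peaked between 20.9 and 21.5 h, late in the feeding phase. The WT fits of Pck1, Slc2a1 and Slc5a1 did not pass (adjusted p 0.22, 0.056 and 0.10, limma F test). Their peak times had standard errors of 1.57, 1.10 and 1.26 h, and that of G6pc 1.03 h. The WT count depended on which libraries were used, KO libraries included, as the test uses 1 spread per gene over both genotypes. Without the libraries labelled KO ZT4 A and KO ZT12 A, Slc2a1 and Pck2 were added to Slc2a2 and G6pc in WT. Without KO ZT4 A alone 4 of the 10 passed as well, beside 16.6% of all genes. Tested as transcripts, Slc2a2-201 passed in WT (adjusted p 0.019), where 6.86% of all transcripts did, and no transcript of the 10 genes passed in KO (1.20% of all) or for the difference (0.266%).

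**Figure D4:**
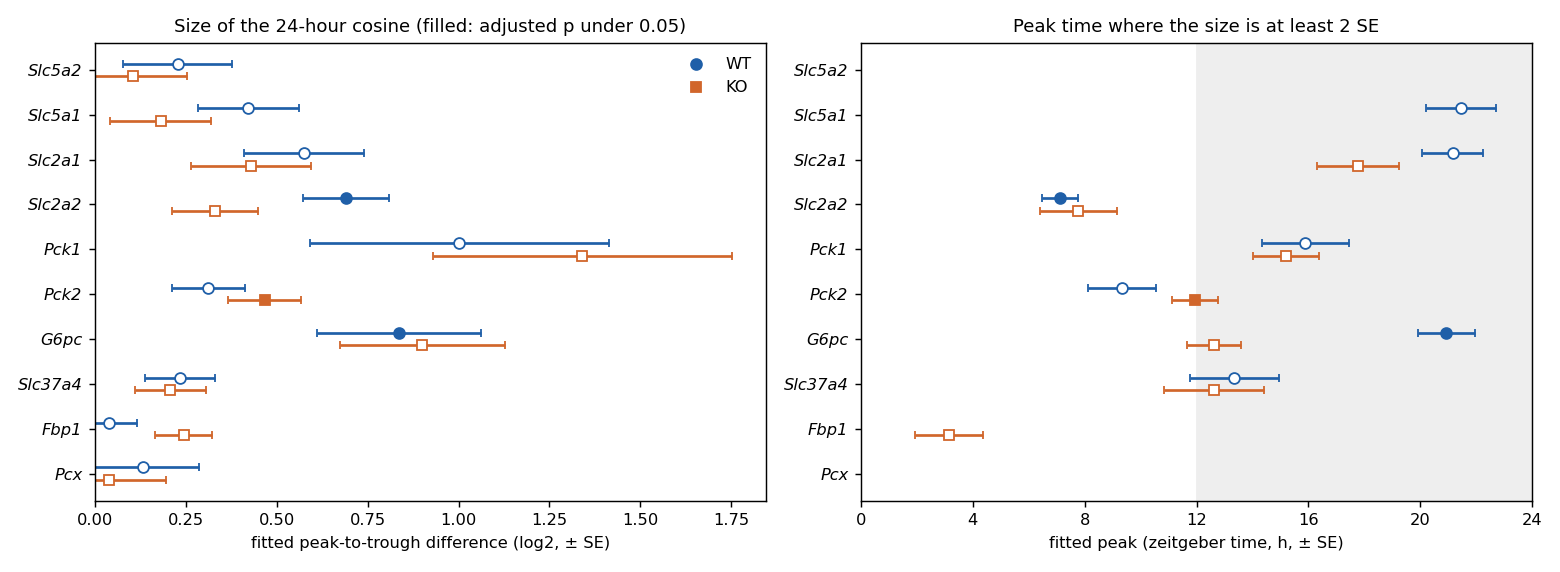
Left, fitted peak-to-trough difference (log2, with standard error) of a 24-hour cosine for each gene in WT (circles) and KO (squares); right, fitted peak time for fits of at least 2 standard errors, with the hours from ZT12 to 24 shaded. Filled symbols passed an adjusted p of 0.05; the G6pc peak lay at 20.9 h in WT and 12.6 h in KO.

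Genes around these 10 were described from 4 lists, of which 64 of 71 genes could be tested; 36 were higher in KO and 6 lower. Under median-of-ratios scaling 21.5% of all genes were higher and 22.6% lower. On that scale the sugar transport list held 5 higher and 1 lower of 9 tested. The glycolytic list held 7 and 2 of 14, a larger share higher and a smaller share lower than among all genes. The regulators held 5 and 5 of 20, near the shares of all genes. Among other sugar transport genes, 7 of 9 tested were higher and 1 lower (median log2 difference 0.46), beside the background of 50.9% and 10.0%. Pdzk1ip1, which encodes the MAP17 partner of SGLT2, rose from 540.5 TPM ± 27.5 to 744 ± 74.2 (log2 difference 0.46, SE 0.045, adjusted p 3.907e-07). Slc5a10, a mannose and fructose cotransporter, rose by 0.83 log2 units (SE 0.11, adjusted p 4.021e-06), Slc5a9 by 0.58 (adjusted p 2.858e-06) and the urate transporter Slc2a9 by 0.51 (adjusted p 8.683e-05). Slc2a5, the fructose transporter GLUT5, fell by 0.34 (adjusted p 0.0071) and was the most strongly rhythmic of the list in WT, with peak and trough 1.03 log2 units apart and a peak at 9.74 h (adjusted p 0.00024). Slc2a9 was rhythmic in both genotypes (adjusted p 0.0043 in WT and 0.013 in KO). The third by rhythm, Slc2a12, did not pass (0.47 log2 units, adjusted p 0.18).

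Of the substrate supply and shared steps of gluconeogenesis, 12 of 21 genes tested were higher in KO and 2 lower, with a median log2 difference of 0.19. Glud1, the mitochondrial glutamate dehydrogenase that opens the route from glutamine, rose from 185 TPM ± 15.3 to 296 ± 42.2 (log2 difference 0.67, SE 0.068, adjusted p 4.659e-07). Pgam1 rose by 0.46 (adjusted p 5.028e-07) and the mitochondrial aminotransferase Got2 by 0.39 (adjusted p 1.011e-06). These shares are near the 50.9% and 10.0% of all genes. Under median-of-ratios scaling 6 were higher and 6 lower, beside 21.5% and 22.6% of all genes. Those called rhythmic in WT were Pgk1 (peak 21.6 h, 0.39 log2 units, adjusted p 0.0045), Pgam1 (22.6 h, 0.44, adjusted p 0.0091) and the alanine aminotransferase Gpt (11.0 h, 1.02, adjusted p 0.040).

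The list of opposing glycolytic genes also held the pyruvate dehydrogenase kinase genes Pdk1, Pdk2, Pdk3 and Pdk4, which are not glycolytic enzymes. Of the whole list, 9 of 14 tested were higher and 1 lower (median log2 difference 0.35), beside 50.9% and 10.0% of all genes. Pklr, a pyruvate kinase, rose by 0.49 (adjusted p 4.798e-06), the hexokinase gene Hk1 by 0.44 (adjusted p 2.91e-05) and the phosphofructokinase gene Pfkm by 0.32 (adjusted p 2.193e-06). Pdk3, which encodes a kinase that restrains pyruvate dehydrogenase, fell by 0.54 (adjusted p 1.524e-05). Pdk2 (0.51 log2 units, peak 8.91 h, adjusted p 0.0021), Pfkp (0.78, 21.7 h, adjusted p 0.032) and Pfkfb3 (0.72, 10.5 h, adjusted p 0.040) were rhythmic in WT.

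Of 20 known regulators, 8 were higher in KO and 2 lower (median log2 difference 0.12), shares no larger than the 50.9% and 10.0% of all genes. Ppargc1a, the coactivator PGC-1α, rose from 10.8 TPM ± 0.931 to 15.2 ± 3.15 (log2 difference 0.47, adjusted p 9.132e-05), Irs1 by 0.56 (adjusted p 0.00027) and Foxo4 by 0.30 (adjusted p 0.00019). Klf15 (0.61 log2 units, peak 10.5 h, adjusted p 0.0083), Creb1 (0.57, 20.7 h, adjusted p 0.025) and Crtc2 (0.37, 8.67 h, adjusted p 0.033) were rhythmic in WT.

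**Figure D5:**
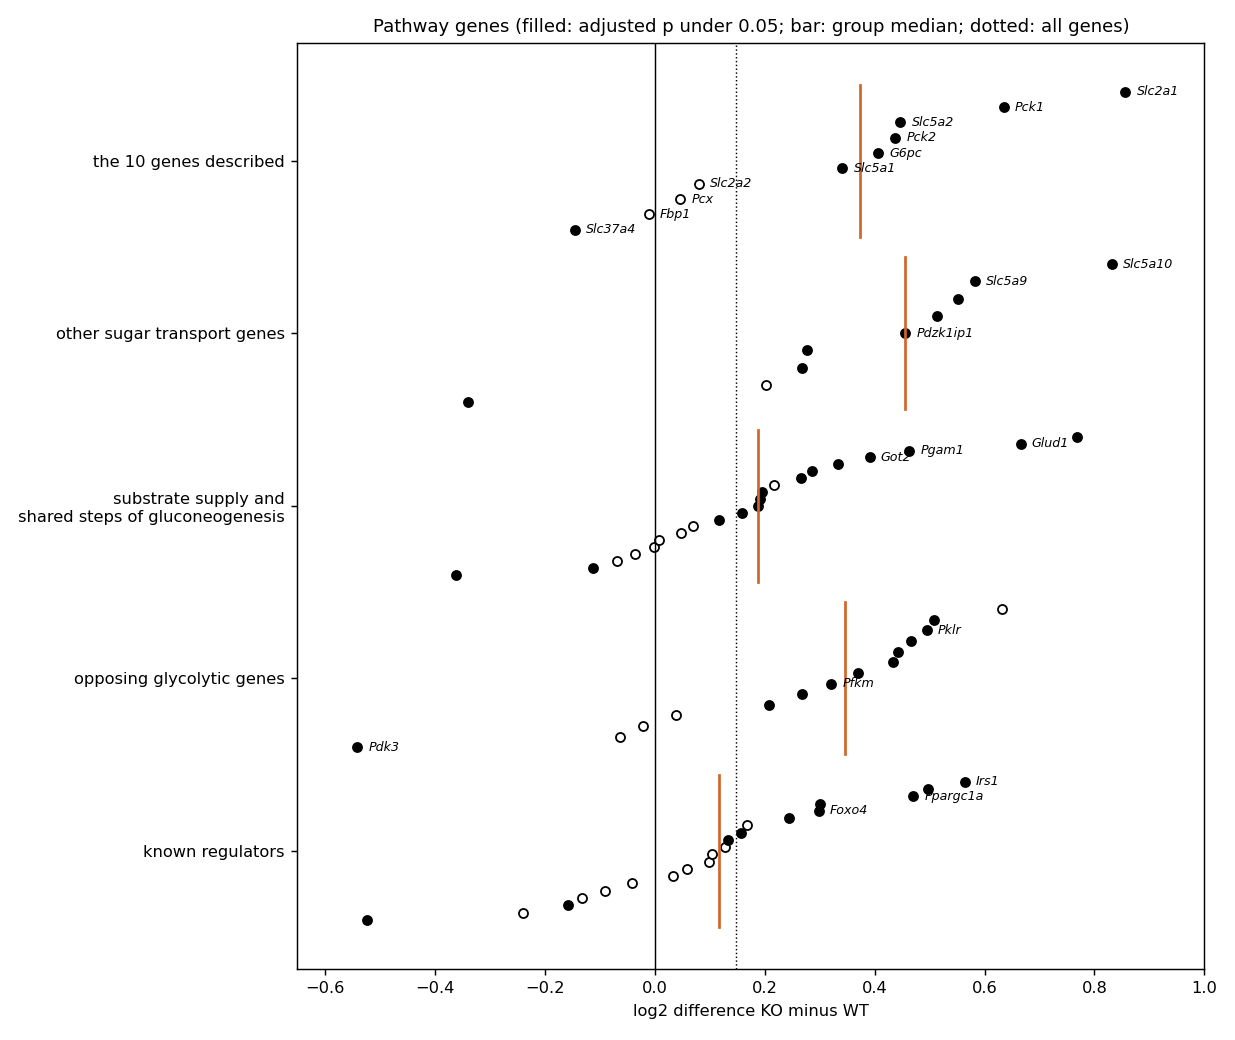
Log2 difference, KO minus WT, for the 10 genes and for the tested genes of 4 pathway lists, 1 point per gene, filled where the adjusted p was under 0.05, with the median of each group as a bar and the median of all genes (0.15) as a dotted line. The bars lie at 0.37 for the 10 genes and between 0.12 and 0.46 for the lists.

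Genes with the most similar course were found by Pearson correlation of the 12 group means of log2 values, which share their libraries and the shift between genotypes. For Slc5a2 they were Npepps (r = 0.99), Cd164 (r = 0.976) and Psmd3 (r = 0.975), for Pck1 they were Ncoa4 (r = 0.915), Sh3bgrl3 (r = 0.892) and Sgk1 (r = 0.892), and for G6pc they were Acot4 (r = 0.926), Gpat4 (r = 0.908) and Klk1 (r = 0.897). Among the 45 pairs of the 10 genes, 2 had r above 0.8, Slc2a1 with Slc5a2 (r = 0.895) and Slc2a1 with Slc5a1 (r = 0.863).

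Markers of other segments and cell types differed between the genotypes too, beside 50.9% of all genes higher in KO and 10.0% lower. In KO, 3 of 3 collecting duct markers (Aqp2, Fxyd4, Atp6v1g3), the podocyte markers Nphs1 and Podxl and both distal convoluted tubule markers (Slc12a3, Pvalb) were higher, as were Slc12a1 of the thick ascending limb (its other marker, Umod, was lower), Pecam1 of 3 endothelial markers, and Hbb-bs and Hba-a1 of 3 red blood cell markers. Of the immune markers, Cd74 was lower and Ptprc and Lyz2 did not pass. Summed levels in WT and KO were 107 to 196 and 144 to 372 TPM for the collecting duct and 454 to 1116 and 640 to 1522 for red blood cells. Of 3 liver markers, Alb was lower (log2 difference -2.10), Apoa2 higher (1.81) and Serpina1a did not pass, and the 3 adrenal markers summed to at most 0.221 TPM. Under median-of-ratios scaling 1 of the distal convoluted tubule markers and none of the red blood cell markers still passed. Of the proximal tubule markers 4 were lower and none higher. The collecting duct markers, Nphs1, Podxl, Slc12a1 and Pecam1 still passed as higher, and Umod and Cd74 as lower. Kdr of the endothelium and Ptprc passed as lower on that scale only (limma, adjusted p 0.049 and 0.031). Of all genes 21.5% were higher there and 22.6% lower. The part of these markers in the differences of the 10 genes was not tested.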

How the data were processed

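Polyadenylated kidney RNA was measured in 24 libraries, grouped by the labels alone; the 20 4C-seq libraries were not used here. The authors deposited TPM per transcript, made with kallisto 0.42.4 (builds mm10 and GRCm38, per the submitters' processing notes); the transcript index is not given in the sources used here. TPM keeps no depth, so no counting interval was computed, and a fixed total lets a change in abundant genes shift all others. Mitochondrial genes took 38.0% to 42.5% of TPM in WT and 32.3% to 40.3% in KO.

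TPM was summed per gene through GENCODE M21 (86119 of 88198 transcripts matched). Tests ran on log2(TPM + 0.1), keeping the 12874 genes whose mean reached 1 TPM, with limma 3.58.1 (eBayes, trend and robust) in R 4.3.3, Benjamini-Hochberg adjustment over all of them and a threshold of 0.05: the genotype coefficient with time as a 6-level factor, the F test of a 24-hour cosine and sine per genotype and of their difference, and KO minus WT at each time with 1 spread over all groups. Log2 differences are on the log2(TPM + 0.1) scale, which understates changes of low genes. Tests were two-sided or F tests, and the models were tested on simulated data.

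The genes, lists and tests were chosen with earlier results of these data known. The text names all 10 genes, from each pathway list the 4 smallest p-values for genotype and the 3 smallest for WT rhythm, the marker lists, and for Slc5a2, Pck1 and G6pc the 3 genes most alike in course; a few genes these rules select are not reported here. Alternatives covered pseudocount, filter, scaling, the replicate block, the eBayes options, the time terms, the most abundant transcript and each library left out; leaving out both libraries that stood apart, and the models over transcripts, were chosen after seeing the data.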

Additional observations from a re-analysis of the deposited data

Results flagged for a closer look

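For 3 of the 10 genes, both KO libraries lay above both WT libraries at some times and below them at others, as for 19.3% of the 12874 genes tested. G6pc was below at ZT0 and above at ZT8, ZT12 and ZT16 (adjusted p of the rhythm difference 0.058, limma). Slc2a2 was below at ZT8 and above at ZT0, ZT12 and ZT16 (adjusted p 0.485). Fbp1 was below at ZT12 and above at ZT4 (adjusted p 0.466). The difference between single times was not tested.

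Pdk4, a pyruvate dehydrogenase kinase of the glycolytic list named here because it alone among the listed pathway genes passed the test of a difference in rhythm (adjusted p 0.041), was fitted with peak and trough 3.24 log2 units apart in KO, with a peak at 11.0 h (adjusted p 0.0051), and 0.77 apart in WT (adjusted p 0.53).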

How the results depend on the processing

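Depth is unknown, each group had 2 libraries, and the labels do not tie them to animals. In the fits with 1 library left out, its partner is assumed to vary like the other groups. The genotype difference was called for 7410 to 8101 genes and 6 or 7 of the 10 genes over these fits; Slc5a2, Slc5a1, Slc2a1, Pck1, Pck2 and Slc37a4 passed in all 24. G6pc passed in 9 of 24. Over the other alternatives, Slc5a2, Slc5a1, Slc2a1 and Slc37a4 passed throughout, as did Pck2 where it was tested (its mean is under the 5 TPM filter).

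Signs of uncalled differences turned for Slc2a2 (-0.071) and Pcx (-0.105) under median-of-ratios scaling, for Pcx (-0.018) after rescaling without mitochondrial genes, and for Fbp1 with its most abundant transcript (0.0001), with 1 library left out (-0.031 to 0.012, above 0 without WT ZT12 A and without KO ZT12 A) and without both libraries that stood apart (7e-04).

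Counts of rhythmic genes moved more. With 1 library left out, WT rhythm was called for 1 to 4 of the 10 genes and for 1194 to 2140 of all genes. In the same fits KO rhythm was called for 0 to 2 of the 10 and for 272 (without KO ZT0 B) to 626 of all genes. The rhythm difference was called for 0 to 1 of the 10 and for 37 (without WT ZT4 B) to 112 of all genes. Without a filter, WT rhythm was called for 1 of the 10, KO rhythm for 295 genes and the difference for 43. With a mean of at least 5 TPM the difference was called for 83 genes, of which 1 was among the 10 (G6pc). Under median-of-ratios scaling 4 of the 10 were called in WT (1998 of all genes), 2 in KO (590) and 1 for the difference (104). Fitting each genotype alone called 2843 genes and 4 of the 10 in WT, and 12 and 0 in KO. With time as a 6-level factor, 576 genes and 1 of the 10 were called in WT, 28 and 0 in KO, and 23 genes for the difference. Without both libraries that stood apart, Slc2a1 and Pck2 were added to the genes of the 10 called in WT. Where no value shows a cause, the cause was not tested.

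The replicate letters did not pair the libraries: same-letter deviations correlated across genes at -0.089 to 0.15 over the 6 times. With the letter as a replicate block, Pck1 was called rhythmic in KO in addition to Pck2 (limma F test, adjusted p of Pck1 0.0499).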

Other observations

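Pearson r between the courses of 2 genes, over 6 group means that share their libraries, ran from -0.868 to 0.988 in WT and from -0.782 to 0.905 in KO over the 45 pairs. The pairs named here were chosen after their values were seen. Slc2a1 and G6pc, highest at ZT0 and lowest at ZT8 in WT, had r = 0.988 over the WT means and r = 0.28 over the KO means. Pck2 and G6pc had r = -0.82 over the WT means and r = 0.905 over the KO means. The difference between genotypes in these values was not tested.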
